A study of Mus musculus with 12 samples.

Results

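Citrate is made in mitochondria by citrate synthase, leaves them through the carrier SLC25A1 and is cleaved in the cytosol by ATP citrate lyase into oxaloacetate and the acetyl-CoA used for fatty acids, sterols and histone acetylation. Cells can also take citrate up from the medium through SLC13A5, a sodium-coupled carrier of the plasma membrane whose loss of function in people causes an early-onset epilepsy, and they can turn citrate into isocitrate and 2-oxoglutarate with aconitases and isocitrate dehydrogenases. The genes followed here were the rows of the raw count table with the symbols Slc13a5, Slc13a3, Slc13a4, Slc25a1, Cs, Acly, Aco1, Idh1 and Idh2, which are 9 of 17365 genes in the table. All 9 passed the filter on low counts that kept 13312 genes for testing. Slc13a5 was chosen by its fitted rise from BMP to BMP/FGF in these same libraries. Its changes between culture states are therefore given as a description with no test. Counts of genes called between states cover the other 8, while differences between the lines were tested for all 9.

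RNA-seq was measured in 12 libraries of adherent mouse neural stem cells from the SVZ of 6-8 week old animals. The cultures were of 2 lines, ANS4 from MF1 mice and BL6 from C57BL/6 mice, each with 2 libraries per culture state. All cultures shared a serum-free medium with N2, B27 and laminin. The EGF/FGF state held EGF and FGF2 and is proliferative, the BMP state held BMP4 (d-qNSCs, dormant) and the BMP/FGF state held BMP4 with FGF2 (p-qNSCs, primed), each factor at 10 ng/ml and the quiescent states for 3 days. BMP/FGF therefore differs from BMP by FGF2, and from EGF/FGF by both the presence of BMP4 and the lack of EGF. Line and strain cannot be told apart. The study calls the 2 replicates of a line and state biological, without saying whether they were separate cultures or animals, so p-values measure the spread between these libraries.

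Library totals lay between 18069052 and 19451818 counts, and levels are given in CPM, the count divided by the library total times 1000000. All 8 neural stem cell markers looked for were detected, with a summed level between 7024 and 8307 CPM in every library. The 7 astrocyte genes found in the table summed to 2470.2-3037 CPM in EGF/FGF, 7078-8435 in BMP and 10757-10937 in BMP/FGF. Neuroblast and neuron genes summed to 16.5-20.9, 315-670 and 102-111 CPM in the same order, and the oligodendrocyte lineage list to 77.8-93.5, 244-304 and 321-330.5 CPM. The lists for microglia, meningeal fibroblasts and mural cells, choroid plexus and endothelium summed to at most 14.7, 6.38, 2.90 and 47.5 CPM. Within these lists Csf1r and Lum had at most 2 counts, Otx2 at most 3 and Pecam1 at most 8 in any library, while Itgam reached 245, Rgs5 73, Aqp1 33, Kdr 74 and Flt1, the most abundant of them, 876 counts. The endothelial list, carried by Flt1, had the order of states EGF/FGF, BMP/FGF, BMP (39.2-47.5, 14.9-18.6 and 5.85-9.57 CPM), and its part in the results was not tested. In bulk RNA, fewer cells of a type and less RNA per cell cannot be told apart.

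Promoter windows of the genes are shown first, since these are the sequences next to the start of each transcript. The windows run from 250 bases before to 50 bases after a RefSeq start on GRCm38.p6. All 9 genes matched the RefSeq table, with 11 windows because Slc13a5 and Idh1 have 2 starts each. Motifs searched on both strands were the E-box CACGTG, the core of a sterol regulatory element TCACNCCAC and the ETS site CCGGAAGT. None of the motif matches overlapped. The windows of the upstream start of Slc13a5, of Slc13a3 and of Slc25a1 are printed 5′ to 3′ along the gene's own strand, which is the minus strand in all of them, because these are the genes that rose from BMP to BMP/FGF with the largest change and the pair that held a motif. Capitals mark an E-box.
Slc13a5 (chr11:72267112-72267411): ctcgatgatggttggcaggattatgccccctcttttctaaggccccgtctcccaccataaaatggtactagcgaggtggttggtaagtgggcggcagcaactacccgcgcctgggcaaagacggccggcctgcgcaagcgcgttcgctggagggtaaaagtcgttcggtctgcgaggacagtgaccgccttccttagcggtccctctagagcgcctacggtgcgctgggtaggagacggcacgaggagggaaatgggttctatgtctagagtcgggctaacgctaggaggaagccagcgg
Slc13a3 (chr2:165473148-165473447): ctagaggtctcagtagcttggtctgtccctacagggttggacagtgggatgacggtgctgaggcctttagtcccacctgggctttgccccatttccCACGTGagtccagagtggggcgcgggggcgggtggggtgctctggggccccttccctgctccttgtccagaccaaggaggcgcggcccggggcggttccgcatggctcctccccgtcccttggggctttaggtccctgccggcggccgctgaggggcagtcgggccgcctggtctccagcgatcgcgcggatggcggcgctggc
Slc25a1 (chr16:17928170-17928469): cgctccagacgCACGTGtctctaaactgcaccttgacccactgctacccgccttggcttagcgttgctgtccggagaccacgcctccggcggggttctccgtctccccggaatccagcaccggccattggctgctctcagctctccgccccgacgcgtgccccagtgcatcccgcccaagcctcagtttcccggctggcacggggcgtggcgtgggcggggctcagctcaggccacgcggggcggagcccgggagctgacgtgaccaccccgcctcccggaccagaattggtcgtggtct
The E-box began 154 bases before the start of Slc13a3 and 239 bases before that of Slc25a1. An E-box stood in 7.15% of the 32851 promoter windows in the RefSeq table, a sterol regulatory element core in 1.24% and an ETS site in 3.89%. Neither of the last 2 motifs was matched in any of the 11 windows, which says only that these letters are not there. The GC content of the Slc13a5 window was 60.3%, against a median of 52.7% over all windows.

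Slc13a5 was lowest in the dormant cultures and highest in the primed ones. In EGF/FGF its level was 6.21 and 8.02 CPM in the ANS4 libraries and 5.95 and 4.90 CPM in the BL6 libraries. In BMP it was 1.26 and 1.11 CPM in ANS4 and 0.534 and 0.698 CPM in BL6, which stand for 10 to 23 counts. In BMP/FGF it was 10.1 and 8.35 CPM in ANS4 and 9.12 and 8.40 CPM in BL6. The levels of the 3 states did not overlap, with every BMP/FGF library above every EGF/FGF library and every BMP library the lowest. The means were 6.27 ± 1.30, 0.901 ± 0.341 and 9.00 ± 0.825 CPM (SD, n = 4) in EGF/FGF, BMP and BMP/FGF. As a description, the fitted change was 10.3-fold from BMP to BMP/FGF (log2 3.37 ± 0.19 SE), a 7.02-fold lower level in BMP than in EGF/FGF (log2 -2.81 ± 0.20) and 1.47-fold from EGF/FGF to BMP/FGF (log2 0.56 ± 0.14). Among 2227 genes averaging at least 1 CPM that rose from BMP to BMP/FGF at FDR under 0.05 and in each same-line difference, it stood in place 3, next to Adamtsl2 above it (log2 3.79 ± 0.35) and Ano1 below it (log2 3.10 ± 0.68).

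**Figure D1:**
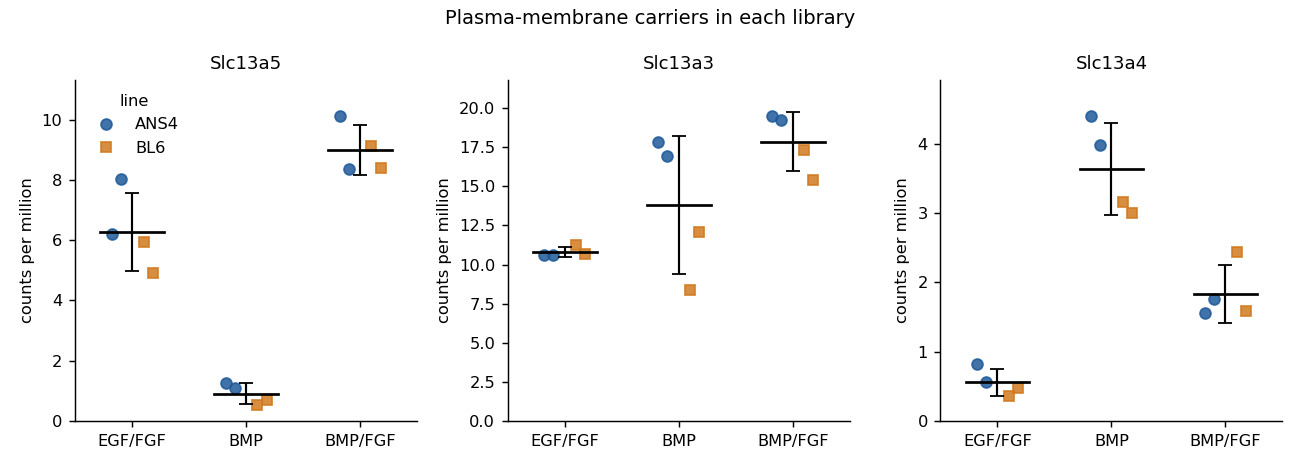
Level of the 3 Slc13 carriers in CPM of each library, by culture state. Circles are ANS4 and squares BL6 libraries, and black lines with bars are the mean ± SD of 4 libraries. Slc13a5 is lowest in all BMP libraries and Slc13a4 highest there, while Slc13a3 in BMP differs between the lines.

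The gene lies on the minus strand at chr11:72241989-72267222 (GRCm38, GENCODE vM21), and its longest coding transcript has 12 exons and 3329 bases. An antisense gene, 1700051A21Rik, overlaps its start on the plus strand, with at most 3 counts in any library. No stretch of 31 bases in its transcripts, the unit kallisto matches, occurs in a transcript of another gene read in its own direction. Reverse complements were not compared, here or for the other genes. The rise from BMP to BMP/FGF was log2 2.96 in ANS4 alone and 3.90 in BL6 alone. That difference between lines was 0.94 ± 0.40 SE on the log2 scale and did not pass the test (edgeR quasi-likelihood, FDR 0.134). Its average level did not differ detectably between the lines either (BL6 minus ANS4 log2 -0.30 ± 0.13, FDR 0.241). The 5 genes outside the group with the most similar pattern over the 12 libraries, among 12454 averaging at least 1 CPM, were Col9a3, a collagen chain (Pearson r 0.992), Rhoj, a small GTPase (0.986), Cnn2, a calponin (0.977), Eif2b2, a translation initiation factor subunit (0.975), and Cd38, an NAD-consuming ectoenzyme (0.973). These values describe log2 CPM over 12 points from 3 states and carry no p. Col9a3 had 3.93 ± 0.380, 1.19 ± 0.264 and 4.52 ± 0.327 CPM (SD, n = 4) in EGF/FGF, BMP and BMP/FGF.

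Where Slc13a5 was lowest, in the dormant cultures, Slc13a4, a sodium-coupled carrier best known for sulfate, was highest. Its level was 0.827, 0.566, 0.365 and 0.469 CPM in the EGF/FGF libraries, taken as both of ANS4 and then both of BL6. In BMP it was 4.40, 3.98, 3.15 and 3.01 CPM in the same order, and in BMP/FGF 1.55, 1.77, 2.44 and 1.58 CPM. The 3 states did not overlap. The fitted level was 6.38-fold higher in BMP than in EGF/FGF (log2 2.67 ± 0.25 SE, FDR 1.72e-08) and fell by 0.93 ± 0.21 on the log2 scale from BMP to BMP/FGF (FDR 0.00161). BMP/FGF stayed above EGF/FGF by log2 1.75 ± 0.27 (FDR 1.38e-05). Only 7 to 16 counts lay behind each EGF/FGF value. In BL6 alone the BMP to BMP/FGF change was log2 -0.53 with an FDR of 0.124, against -1.33 in ANS4 alone, and the difference between lines did not pass (0.80 ± 0.35, FDR 0.138). The neuroblast and neuron genes had the same order of states (16.5-20.9, 315-670 and 102-111 CPM summed), and their part in the Slc13a4 values was not tested. The gene is at chr6:35267957-35308131 on the minus strand, and 1.73% of its 31-base stretches occur in other genes.

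Slc13a3, a carrier of succinate and other dicarboxylates that also takes up citrate weakly, was raised in the primed state, while its level in BMP depended on the line. Its level was 10.6, 10.6, 11.3 and 10.7 CPM in EGF/FGF and 19.5, 19.2, 17.3 and 15.4 CPM in BMP/FGF, again with ANS4 before BL6. In BMP the ANS4 libraries had 17.8 and 16.9 CPM and the BL6 libraries 8.39 and 12.1 CPM. BMP thus overlapped with both other states, whereas BMP/FGF and EGF/FGF did not overlap. The BMP/FGF level exceeded EGF/FGF 1.67-fold (log2 0.74 ± 0.14 SE, FDR 0.000123; exact permutation p 0.0286, the smallest that 4 against 4 libraries allow, two-sided). BMP/FGF against BMP gave log2 0.43 ± 0.14 (FDR 0.0196), but an exact permutation p of 0.200, and the change from EGF/FGF to BMP did not pass (0.31 ± 0.15, FDR 0.0599). In ANS4 alone the step from EGF/FGF to BMP was log2 0.71 and the step from BMP to BMP/FGF 0.16 (FDR 0.192), while in BL6 alone they were -0.15 (FDR 0.399) and 0.76. Both differences between lines passed the test, at -0.84 ± 0.19 (FDR 0.0113) and 0.60 ± 0.18 (FDR 0.0377). The BMP/FGF against BMP call was lost without BL6 BMP replicate 1 or without BL6 BMP/FGF replicate 1 (FDR 0.0626 and 0.0682). It was also lost when line was left out of the fit (log2 0.41, FDR 0.0663). The gene is at chr2:165405028-165473230 on the minus strand.

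Levels of different genes were compared only per kilobase of the longest coding transcript. On that scale Slc13a3 was the most abundant of the 3 carriers in each state, with 3.07, 3.92 and 5.07 CPM per kb in EGF/FGF, BMP and BMP/FGF. The order and the shares depend on the length used. Slc13a5 had a longest coding length of 3329 bases and a median of 1751, against 3524 and 3327 for Slc13a3. With median lengths, Slc13a5 would stand above Slc13a3 in EGF/FGF. Slc13a5 made up 36.6 ± 4.76% (SD, n = 4) of the summed carrier level in EGF/FGF, 5.05 ± 0.50% in BMP and 32.6 ± 2.08% in BMP/FGF. The share of Slc13a4 was 3.18 ± 1.11%, 20.9 ± 3.81% and 6.47 ± 1.47%. In BMP every library had a larger share for Slc13a4 (18.4-26.6%) than for Slc13a5 (4.64-5.65%), and in the other states the reverse held. Of the other family members, Slc13a1 had 3 to 12 counts and Slc13a2 0 to 4 in the libraries, and neither passed the filter for testing.

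Slc25a1, the carrier that exports citrate from mitochondria in exchange for malate, was lower in the dormant than in the proliferative and the primed cultures. Its level was 211, 213, 168 and 169 CPM in EGF/FGF, 151, 158, 107 and 116 CPM in BMP and 221, 204, 194 and 198 CPM in BMP/FGF, each with ANS4 before BL6. No BMP library reached the range of either other state, and BMP/FGF overlapped with EGF/FGF. BMP lay below EGF/FGF by log2 -0.54 ± 0.07 SE (FDR 2.85e-06) and BMP/FGF above BMP by 0.68 ± 0.07 (1.60-fold, FDR 1.72e-06). BMP/FGF against EGF/FGF did not pass (0.14 ± 0.07, FDR 0.0945, 95% interval -0.02 to 0.29), but it did in BL6 alone (0.25, FDR 0.00601, against 0.004 in ANS4 alone) and without ANS4 BMP/FGF replicate 2 (0.20, FDR 0.0192). The rise from BMP to BMP/FGF was larger in BL6 (log2 0.90) than in ANS4 (0.46), a difference of 0.43 ± 0.09 (FDR 0.00449). Its average level was lower in BL6 than in ANS4 by log2 -0.31 ± 0.06 (FDR 0.0159). The gene occupies chr16:17925223-17928219 on the minus strand, with 9 exons in its longest coding transcript.

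Cs, citrate synthase, which joins acetyl-CoA to oxaloacetate, was lower in both quiescent states. EGF/FGF libraries had 915, 926, 889 and 879 CPM, BMP libraries 588, 582, 541 and 577 CPM and BMP/FGF libraries 639.7, 627, 655 and 617 CPM. The 3 states did not overlap. BMP lay below EGF/FGF by log2 -0.68 ± 0.06 SE (FDR 4.44e-09) and BMP/FGF by -0.48 ± 0.06 (FDR 4.59e-07). The rise from BMP to BMP/FGF was small (log2 0.20 ± 0.06, 1.14-fold, FDR 0.0107), and without BL6 BMP/FGF replicate 1 it no longer passed (FDR 0.062). Cs lies at chr10:128337734-128362479 on the plus strand, and 5.55% of its 31-base stretches occur in other genes, most of them in Csl, a gene of closely related sequence.

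Acly, ATP citrate lyase, had the largest decline of the enzymes in the dormant state. Its level was 675, 755, 628 and 627 CPM in EGF/FGF, 312, 339.6, 301 and 273 CPM in BMP and 397, 414, 377 and 369 CPM in BMP/FGF. The states did not overlap. BMP was 2.22-fold below EGF/FGF (log2 -1.15 ± 0.06 SE, FDR 9.26e-12), BMP/FGF was above BMP by 0.39 ± 0.06 (1.31-fold, FDR 7.95e-05) and remained below EGF/FGF by -0.76 ± 0.06 (FDR 2.87e-09). None of these changes differed between the lines beyond the test (lowest FDR 0.381). Acly lies at chr11:100476353-100528000 on the minus strand, and none of its 31-base stretches occurs in another gene.

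**Figure D2:**
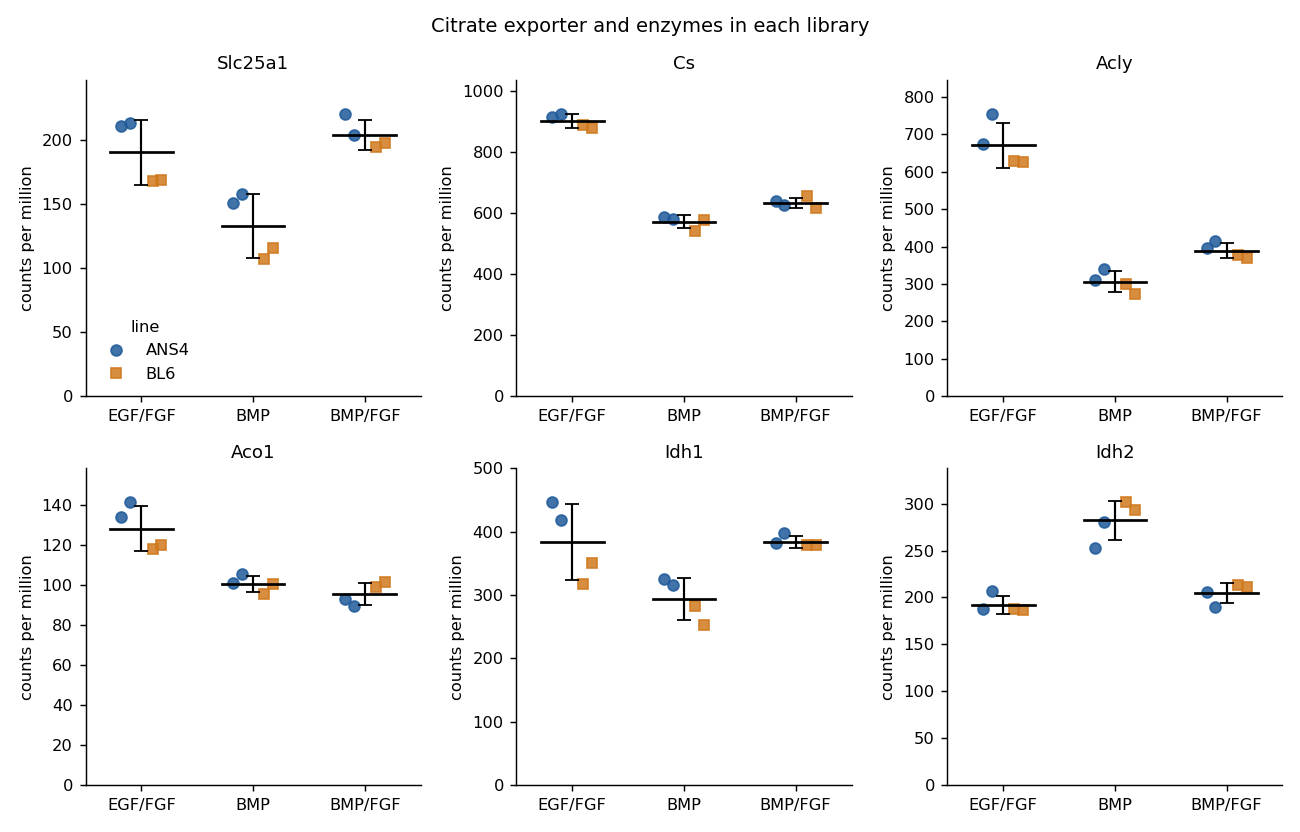
Level of the mitochondrial citrate exporter and of 5 enzymes in CPM of each library, by culture state. Circles are ANS4 and squares BL6 libraries, and black lines with bars are the mean ± SD of 4 libraries. Slc25a1, Cs, Acly and Idh1 have their lowest mean in BMP, Idh2 its highest, and Aco1 is lower in both quiescent states than in EGF/FGF.

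Aco1, the cytosolic aconitase, which without its iron-sulfur cluster binds iron-responsive elements in RNA, fell on entry into either quiescent state. It had 134, 141, 118 and 119.9 CPM in EGF/FGF, 101, 105, 95.4 and 100.3 CPM in BMP and 93.1, 89.2, 98.8 and 101 CPM in BMP/FGF. EGF/FGF stood above both other states, which overlapped. The change was log2 -0.37 ± 0.07 SE for BMP against EGF/FGF (FDR 0.000123) and -0.39 ± 0.07 for BMP/FGF against EGF/FGF (FDR 6.34e-05). BMP/FGF against BMP gave -0.03 ± 0.07 (FDR 0.793, 95% interval -0.18 to 0.12). Here the lines differed by 0.29 ± 0.09 (FDR 0.0421), the change being -0.17 within ANS4 and 0.11 within BL6. Aco1 lies at chr4:40143081-40198338 on the plus strand.

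Idh1 and Idh2 make 2-oxoglutarate and NADPH from isocitrate, Idh1 in the cytosol and peroxisomes and Idh2 in mitochondria, and they moved in opposite directions. Idh1 was 446, 419, 317 and 351 CPM in EGF/FGF, 326, 315, 282 and 252 CPM in BMP and 382, 398, 378 and 379 CPM in BMP/FGF. Idh2 was 187, 207, 188 and 186 CPM in EGF/FGF, 253, 280.1, 301 and 294 CPM in BMP and 205, 189.7, 213 and 211 CPM in BMP/FGF. The BMP libraries were the lowest within each line for Idh1, with an overlap between ANS4 BMP and BL6 EGF/FGF, and the highest of all libraries for Idh2. Idh1 changed by log2 -0.40 ± 0.07 SE from EGF/FGF to BMP (FDR 9.90e-05) and by 0.44 ± 0.07 from BMP to BMP/FGF (FDR 0.000158). Idh2 changed by 0.53 ± 0.06 (FDR 4.81e-07) and by -0.42 ± 0.06 (FDR 5.79e-05) over the same steps. Neither passed between BMP/FGF and EGF/FGF in the joint fit (Idh1 0.04 ± 0.07, FDR 0.591; Idh2 0.12 ± 0.06, FDR 0.103). Idh2 did pass in BL6 alone (0.21, FDR 0.0110, against 0.01 in ANS4 alone) and without ANS4 EGF/FGF replicate 2 (0.17, FDR 0.0235), the library in which it was highest in that state. For Idh1 the comparison ran in opposite directions in the lines, at log2 -0.15 within ANS4 and 0.21 within BL6, and the difference of 0.37 ± 0.10 passed (FDR 0.0310). As for Slc13a4, the neuroblast and neuron genes were also highest in BMP, and their part in the Idh2 values was not tested. Idh1 lies at chr1:65158616-65186500 and Idh2 at chr7:80094846-80115392, both on the minus strand.

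Counting over the group, BMP/FGF against BMP raised 5 of the 8 genes other than Slc13a5 (Slc13a3, Slc25a1, Cs, Acly and Idh1) at FDR under 0.05, where 20.1% of all tested genes rose, and lowered 2 (Slc13a4 and Idh2), where 21.3% fell. BMP against EGF/FGF raised 2 (Slc13a4 and Idh2; 40.8% of all genes) and lowered 5 (Slc25a1, Cs, Acly, Aco1 and Idh1; 38.8%). BMP/FGF against EGF/FGF raised Slc13a3 and Slc13a4 (40.9% of all genes) and lowered Cs, Acly and Aco1 (38.0%), with 3 genes not passing. The median log2 change of the 8 genes was 0.29, -0.38 and 0.08 over the comparisons in the order just given, beside -0.004, 0.02 and 0.02 over all tested genes. These comparisons share their libraries pairwise, so their values are not independent. No member other than Slc13a4 and Slc13a5 passed 1.5 on the log2 scale in any comparison. An exact permutation test, run on log2 values after 0.1 was added to each CPM, gave p = 0.0286 for 6, 6 and 5 of the 8 genes in these comparisons. Calls of the fit that this test missed were Slc13a3 in BMP/FGF against BMP (exact p = 0.200) and Idh1 in BMP against EGF/FGF (exact p = 0.0571). The permutation test took no account of line, whereas the fit did. For both genes all 4 differences between same-numbered libraries of a line had the direction of the fit.

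**Figure D3:**
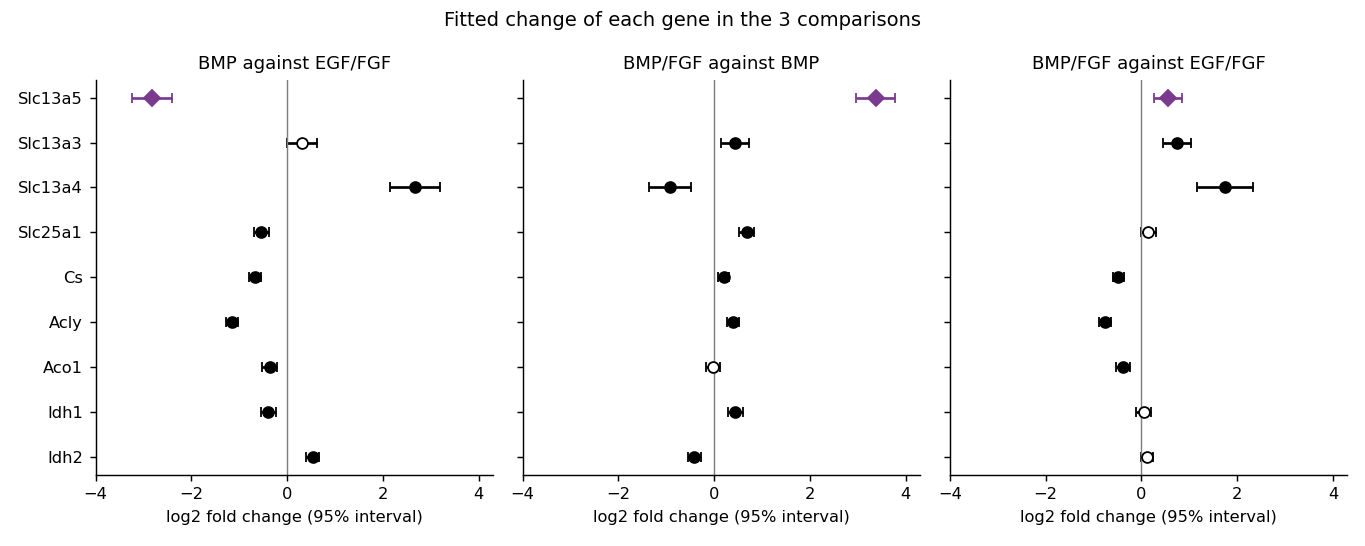
Fitted log2 fold change of each gene with its 95% interval in 3 comparisons, from the fit over 12 libraries. Filled circles passed an FDR of 0.05, open circles did not, and the diamond for Slc13a5 is a description with no test. Slc13a5 and Slc13a4 lie farthest from 0 and on opposite sides in both comparisons with BMP.

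The effect of culture state differed between the lines at FDR under 0.05 for 4 of the 9 genes in BMP/FGF against BMP (Slc13a3, Slc25a1, Aco1 and Idh1), where 13.5% of all tested genes did, for 1 of 9 in BMP against EGF/FGF (Slc13a3; 9.02% of all genes) and for 2 of 9 in BMP/FGF against EGF/FGF (Aco1 and Idh1; 4.98%). In the first comparison all 4 changes were more positive in BL6 than in ANS4. Of all genes, 888 were more positive and 913 less so. With scaling by library size alone these became 544 and 1401, and of the members only Slc25a1 (0.36, FDR 0.0136) still passed. Each of the other line differences was lost when at least 1 library was left out, among them that of Slc13a3 in BMP against EGF/FGF without BL6 EGF/FGF replicate 1 (-0.80, FDR 0.0516). Average level differed between the lines for Slc25a1 alone, 1 of 9 genes, where 1.80% of all genes did, and this call was lost without ANS4 BMP replicate 2.

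Ratios of counts within a library do not depend on the scaling between libraries. The Idh1 to Idh2 ratio was 1.99 ± 0.295 in EGF/FGF, 1.05 ± 0.193 in BMP and 1.88 ± 0.149 in BMP/FGF (SD, n = 4). It changed by log2 -0.93 from EGF/FGF to BMP and by 0.85 from BMP to BMP/FGF (exact permutation p = 0.0286, adjusted over 12 tests 0.0381 for both), and BMP/FGF did not differ detectably from EGF/FGF (-0.07, exact p = 0.571). Acly to Cs was 0.743 ± 0.050, 0.536 ± 0.047 and 0.614 ± 0.036, lower in BMP (log2 -0.47, adjusted exact p = 0.0381) and not past the threshold between BMP and BMP/FGF (0.20, adjusted exact p = 0.0686). Slc25a1 to Cs was 0.211 ± 0.023, 0.232 ± 0.038 and 0.322 ± 0.020. This ratio rose by log2 0.48 from BMP to BMP/FGF and stood 0.62 above EGF/FGF in BMP/FGF (adjusted exact p = 0.0381 for both), and BMP against EGF/FGF gave 0.13 (adjusted exact p = 0.374). The rise from BMP to BMP/FGF missed the threshold when any of the 4 BMP/FGF libraries was left out (log2 0.45-0.52, adjusted exact p of 0.0686 to 0.0762).

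**Figure D4:**
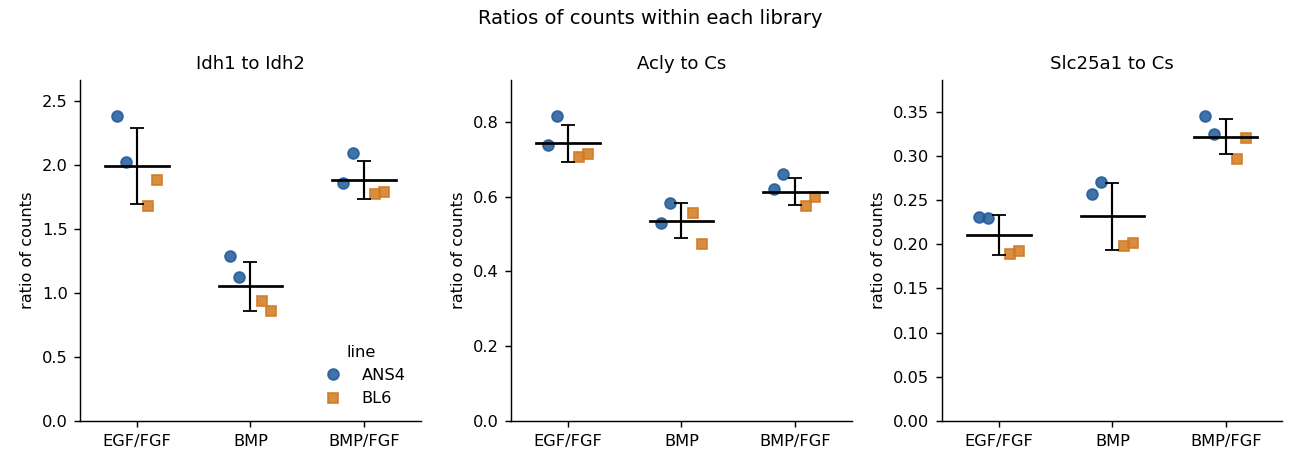
Ratio of counts of gene pairs within each library, by culture state. Circles are ANS4 and squares BL6 libraries, with the mean ± SD of 4 libraries in black. Idh1 to Idh2 has its lowest mean in BMP, and Slc25a1 to Cs is highest in BMP/FGF.

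Per kilobase of the longest coding transcript, Cs was the most abundant member in each state (308, 195 and 217 CPM per kb in EGF/FGF, BMP and BMP/FGF). This order too depends on the length used, since Idh1 had a longest coding length of 2302 bases and a median of 756. In EGF/FGF Cs was followed by Idh1 at 166 ± 26.0 and Acly at 152 ± 13.6, which did not differ beyond their spread. In BMP the next was Idh2 at 162 ± 12.1, ahead of Idh1 at 128 ± 14.6. In BMP/FGF the order after Cs was Idh1 at 167 ± 4.09, Slc25a1 at 122 ± 7.02 and Idh2 at 117 ± 6.06 CPM per kb, the last pair within their spread. Aco1 ranked below these with 24.9 to 33.4 CPM per kb, and Slc13a5 reached 1.88, 0.271 and 2.70 CPM per kb.

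Of other carriers for citrate, dicarboxylates and pyruvate, 8 of 14 listed genes could be tested. From BMP to BMP/FGF 2 rose and 3 fell, where 20.1% of all tested genes rose and 21.3% fell, and the list median was -0.12. Mpc1, a subunit of the mitochondrial pyruvate carrier, rose by log2 0.45 ± 0.07 SE (FDR 6.12e-05), and Slc25a12, the mitochondrial aspartate-glutamate carrier, fell by 0.68 ± 0.08 (FDR 2.78e-06). Slc16a1, a lactate and pyruvate carrier of the plasma membrane, was higher in BMP than in EGF/FGF by 1.76 ± 0.10 (FDR 1.59e-11) and gave -0.08 ± 0.10 between BMP/FGF and BMP (FDR 0.557). That value joins opposite changes of Slc16a1, -0.40 in ANS4 alone (FDR 3.82e-05) and 0.26 in BL6 alone (FDR 0.00727), with a line difference of 0.66 (FDR 0.000144).

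Of 12 tested genes that govern pyruvate entry into the mitochondrial cycle, 5 rose and 6 fell from EGF/FGF to BMP (all tested genes 40.8% and 38.8%), and 3 rose and 4 fell from BMP to BMP/FGF (all tested genes 20.1% and 21.3%). Higher in BMP than in EGF/FGF were Pdk4 (log2 3.47 ± 0.11 SE, FDR 6.87e-15) and Pdk2 (2.69 ± 0.09, FDR 2.35e-14), kinases that inhibit pyruvate dehydrogenase, and Pdp1 (2.63 ± 0.10, FDR 1.44e-13), the phosphatase that reactivates it. So was Pcx, pyruvate carboxylase, which makes oxaloacetate from pyruvate (1.85 ± 0.09, FDR 1.41e-12). From BMP to BMP/FGF Pdp1 changed by -0.92 ± 0.09 (FDR 7.67e-07) and Pcx by -0.88 ± 0.08 (FDR 3.46e-07), while Dld, a subunit shared by 2-oxoacid dehydrogenases, rose by 0.32 ± 0.08 (FDR 0.00367). Among 16 other enzymes of the tricarboxylic acid cycle, 12 fell and 3 rose from EGF/FGF to BMP (38.8% and 40.8% of all genes; median log2 -0.39), and 6 rose and 0 fell from BMP to BMP/FGF (20.1% and 21.3% of all genes; median 0.14). Ogdhl, an oxoglutarate dehydrogenase subunit, had the largest of these rises (0.50 ± 0.07, FDR 2.70e-05).

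A further list held genes that use cytosolic acetyl-CoA, the product of Acly, or supply it from acetate. Of 13 tested, 8 fell and 3 rose from EGF/FGF to BMP (38.8% and 40.8% of all genes; median log2 -0.48), and 8 rose and 1 fell from BMP to BMP/FGF (20.1% and 21.3% of all genes; median 0.44). Hmgcs1, of the sterol pathway, rose from BMP to BMP/FGF by log2 1.63 ± 0.10 SE (FDR 3.56e-09). Acss2, which makes acetyl-CoA from acetate, rose by 1.59 ± 0.13 (FDR 4.60e-08). The fatty acid elongase Elovl6 rose by 0.79 ± 0.06 (FDR 1.68e-08) and Acat2, an acetyl-CoA acetyltransferase, by 0.68 ± 0.07 (FDR 1.49e-06), after changes from EGF/FGF to BMP of -1.72 ± 0.06 (FDR 2.02e-14) and -1.78 ± 0.07 (FDR 2.59e-13). Fasn, fatty acid synthase, and Acaca, acetyl-CoA carboxylase, gave 0.02 ± 0.09 (FDR 0.879) and -0.06 ± 0.06 (FDR 0.516) between BMP/FGF and BMP, and were chosen for mention after their values were seen. Both differed between the lines in this comparison, Fasn by 0.53 (FDR 0.00483; -0.24 in ANS4 alone and 0.28 in BL6 alone) and Acaca by 0.34 (FDR 0.00997; -0.23 and 0.12). Srebf1, a transcription factor of lipid synthesis, fell by 0.32 ± 0.09 (FDR 0.00920), but not past the test in BL6 alone (-0.10, FDR 0.434, against -0.53 in ANS4 alone), with a line difference of 0.43 (FDR 0.0255).

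**Figure D5:**
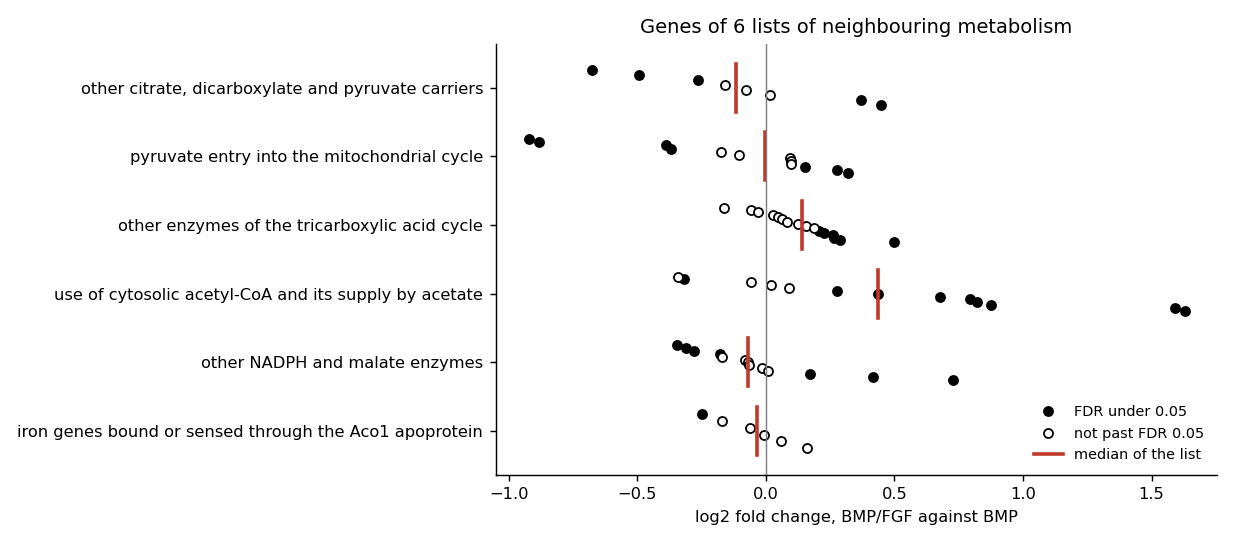
Fitted log2 fold change of BMP/FGF against BMP for each tested gene of 6 lists. Filled points passed an FDR of 0.05, open points did not, and the red line is the median of a list. The list around cytosolic acetyl-CoA holds the largest rises, up to 1.63 for Hmgcs1, and the list around pyruvate entry the largest falls, to -0.92 for Pdp1.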

How the data were processed

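RNA-seq of 12 libraries (2 lines, 3 culture states, 2 replicates of each) was analysed from the deposited tables. For these files, per the methods and the submitters' processing notes, the authors used Trim Galore 0.5.0 for trimming, kallisto 0.44.0 with transcripts of mm10 and Tximport for sums per gene, and deposited estimated counts in whole numbers. A further deposited table, named for normalised counts, holds log2 values from the rlog of DESeq2 1.27.32. It was used only as an alternative. Both tables were used whole apart from gene identifiers.

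Counts were analysed in R 4.3.3 with edgeR 4.0.16: filterByExpr by state, TMM scaling, and glmQLFit on all 12 libraries with state and line as terms. Contrasts and line by state interactions were tested two-sided with glmQLFTest, adjusted by Benjamini-Hochberg over 13312 genes and called at FDR 0.05, with 1.5 on the log2 scale as a second mark. The code was tested on simulated data. Exact permutation tests enumerated all 70 divisions of 8 libraries into 4 and 4 without regard to line, so that no p lies under 0.0286. Log2 CPM for the pattern search used a prior count of 2. Alternatives used limma 3.58.1 and DESeq2 1.42.0. Figures and descriptions used Python 3.11.15.

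The members, the gene lists and the markers were chosen with earlier results of these data known. Named genes were all members, the passing gene of each list with the largest rise and fall from BMP to BMP/FGF, list genes past 1.5 on the log2 scale, the 5 genes most like Slc13a5 and its neighbours in the order of rises. Some genes that this rule names, and 1 of 4 gene ratios tested, are not reported here. Positions, exons and transcript lengths are from GENCODE vM21 (GRCm38) and promoters from RefSeq. Kallisto's estimated counts divide reads shared between genes by a model, strand-specific counting is not given in the sources used here, and 1 count equals 0.0514 to 0.0553 CPM. Intervals cover the spread between libraries.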

Additional observations from a re-analysis of the deposited data

Results flagged for a closer look

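In the 27 groups of 4 libraries looked at (9 genes in 3 states), 2 held a library far from the others by Dixon's criterion, and chance flags about 1 in 20 groups. Slc13a3 in BL6 EGF/FGF replicate 1 was 11.3 CPM, against 10.6 to 10.7 in the other EGF/FGF libraries. Idh2 in ANS4 EGF/FGF replicate 2 was 207 CPM, against 186 to 188.

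The effect of culture state differed between BL6 and ANS4 by an interaction term (edgeR quasi-likelihood, FDR under 0.05) in 7 cases, given as BL6 minus ANS4 on the log2 scale. From BMP to BMP/FGF the difference was 0.43 for Slc25a1 (FDR 0.00449), 0.60 for Slc13a3 (FDR 0.0377), 0.29 for Aco1 (FDR 0.0421) and 0.30 for Idh1 (FDR 0.0488). For BMP against EGF/FGF it was -0.84 for Slc13a3 (FDR 0.0113). For BMP/FGF against EGF/FGF it was 0.39 for Aco1 (FDR 0.0189) and 0.37 for Idh1 (FDR 0.0310). With 2 libraries per line and state, all of these rest on pairs of libraries.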

How the results depend on the processing

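Member calls between states were largely kept. The 5 genes higher in BMP/FGF than in BMP were 3 in ANS4 alone and 3 to 5 when any library was left out, and the 2 lower were 1 in BL6 alone and 3 in ANS4 alone, where Aco1 also fell (-0.17, FDR 0.0350). With line left out of the fit, Slc13a3 was not called in BMP/FGF against BMP (FDR 0.0663). BMP/FGF against EGF/FGF gave 5 higher genes in BL6 alone in place of 2. Line differences were fragile: the 4 genes of BMP/FGF against BMP became 1 with library size only, without the filter, in the replicate block and with only the 8 libraries compared, and 1 to 3 when a library was left out. Slc25a1 remained past the threshold in each of these. The 2 of BMP/FGF against EGF/FGF became 1 with library size only, without the filter and in the replicate block, and 0 to 3 when a library was left out. The 1 of BMP against EGF/FGF ranged over 0 to 1, and the 1 lower average level in BL6 over 0 to 2, with 0 in the replicate block. The cause of these shifts was not tested. Directions turned for Idh1 in BMP/FGF against EGF/FGF in ANS4 alone (-0.15), for Slc16a1 (0.26) and Fth1 (0.17) in BMP/FGF against BMP in BL6 alone (-0.40 and -0.17 in ANS4 alone), and for Slc11a2 in BMP/FGF against EGF/FGF with limma on rlog values (-0.12). Values not past the test in the joint fit or in BL6 alone also turned in BL6 alone, for Slc13a3 in BMP against EGF/FGF (-0.15 in place of 0.31) and Aco1 in BMP/FGF against BMP (0.11 in place of -0.03). Leave-one-out log2 ratios ran from 0.14 to 0.24 for Acly to Cs in BMP/FGF against BMP, where the call appeared without ANS4 BMP replicate 2, from -0.31 to -0.23 in BMP/FGF against EGF/FGF, where it was lost without ANS4 EGF/FGF replicate 2, and from 0.41 to 0.56 for Slc25a1 to Cs in BMP/FGF against BMP. Slc13a5 rose by log2 2.43 on the rlog scale, which shrinks low genes, and by 2.96 to 3.90 within lines.

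Same-numbered libraries of a line did not deviate together (r from -0.07 to 0.05 for 6 pairs of states). The labels do not say whether they were cultured or treated together, and these correlations cannot decide it. The replicate block gave 2435 higher and 2590 lower genes in BMP/FGF against BMP, in place of 2674 and 2839, and changed no call of a member between states. Slc13a4 at 7 to 16 counts in EGF/FGF and Slc13a5 at 10 to 23 in BMP are the values that depth limits most.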

Other observations

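Enzymes that also make NADPH or handle malate and glutamate showed mixed changes. Of 13 tested genes, 9 fell and 3 rose from EGF/FGF to BMP (38.8% and 40.8% of all tested genes), and 3 rose and 4 fell from BMP to BMP/FGF (20.1% and 21.3% of all; median log2 -0.07, beside -0.004 over all genes). Me1, the cytosolic malic enzyme, was 384 ± 22.6 CPM in EGF/FGF, 225 ± 45.5 in BMP and 359.9 ± 6.20 in BMP/FGF (SD, n = 4), a rise of log2 0.73 ± 0.10 SE from BMP to BMP/FGF (edgeR FDR 1.88e-05). This rise of Me1 ran from 0.47 to 1.02 over the alternative analyses, each line alone among them, and passed in each. Glud1, glutamate dehydrogenase, rose from EGF/FGF to BMP by 1.75 ± 0.10 (edgeR FDR 1.63e-11) and from BMP to BMP/FGF by 0.42 ± 0.10 (FDR 0.00229). The latter rise of Glud1 did not pass in ANS4 alone (0.10, FDR 0.168) and was 0.74 in BL6 alone, a line difference of 0.64 (edgeR FDR 0.000201). Got1, the cytosolic aspartate aminotransferase, was lower in BMP than in EGF/FGF by -1.52 ± 0.08 (FDR 6.64e-12).

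Of 6 tested genes of iron handling, whose RNAs or products are tied to the apoprotein of Aco1, 3 rose and 1 fell from EGF/FGF to BMP (40.8% and 38.8% of all tested genes) and 1 fell from BMP to BMP/FGF (21.3% of all). Fth1, the ferritin heavy chain, was 1812 ± 49.7 CPM in EGF/FGF, 6622 ± 586 in BMP and 6394 ± 244 in BMP/FGF (SD, n = 4), higher in BMP than in EGF/FGF by log2 1.85 ± 0.08 SE (edgeR FDR 2.73e-13). Slc11a2, a divalent metal carrier, fell by 0.25 ± 0.07 from BMP to BMP/FGF (edgeR FDR 0.00811), a call that was lost in BL6 alone (-0.11, FDR 0.360).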
